A study of Homo sapiens with 402 samples.

Results

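The comparison described here sets MCF10A cells exposed to copper at 25 µM against the same cells exposed to lead at 25 µM. MCF10A is an established, non-tumorigenic human breast epithelial line, labelled wild type. The rule took every library labelled Copper 25 (4 libraries) or Lead 25 (4 libraries), 8 of the 402 libraries in hand, and no control library enters the contrast. All 8 came from 1 of the 5 plates and carry its plate barcode, and both metals have water as their labelled control. Cells sat in wells of 384-well plates, were dosed for 48 h, and were lysed in the well for barcoded cDNA (plexWell, a plate-based RNA-seq method). The lower doses used below are Copper and Lead at 0.025, 0.25 and 2.5 µM (4 libraries each), and the reference is 15 water control libraries of the same plate. The labels call the 4 replicates of a dose biological, and the wells were seeded from cells of 1 passage number, so p-values measure the spread between wells. The labels give neither the salt of either metal nor any measure of its uptake. In bulk RNA, fewer cells of a kind and less RNA per cell cannot be told apart.

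Copper is an essential metal. Cells import it through SLC31A1 (CTR1), pass it to enzymes by chaperones such as ATOX1 and export it with the pumps ATP7A and ATP7B. Lead has no known role in the body, binds thiols, and is known for inhibiting ALAD and FECH, enzymes of heme synthesis. Metallothioneins are small cysteine-rich proteins that bind zinc, copper and other soft metals, and their genes are induced through the zinc-sensing factor MTF1.

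Library sizes of the 2 metals overlapped. Copper 25 held 12.2 to 21.9 M counts and Lead 25 held 13.01 to 20.1 M, and an exact two-sided permutation test of the totals gave p = 0.771 (adjusted over 3 library measures 0.771, n = 4 each). With 4 against 4 the smallest exact p is 0.0286. The control libraries were uneven: controls 1 to 8 held 12.6 to 23.9 M counts and controls 10 to 16 held 1.93 to 5.399 M. Replicates 1 and 2 also stood apart from replicates 3 and 4 in both metals, and the labels do not say what sets these pairs apart. The fit therefore carried a term for the pair, and values within each pair are given below. Levels are in CPM (counts scaled to a common TMM-corrected library total), differences are log2 of copper over lead ± the standard error, and "called" means an adjusted p below 0.05 in edgeR's quasi-likelihood test (Benjamini-Hochberg, over the 24295 genes tested).

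Copper and lead at 25 µM differed in 564 genes, 2.32% of those tested. Of these, 281 were higher in copper (1.16%) and 283 lower (1.16%), around a median difference of 0.0034 over all genes tested. Genes higher in copper had a median difference of 0.74 from lead. Their medians against the water controls were 0.47 in copper and -0.27 in lead. Genes lower in copper had medians of -0.64 against lead, -0.42 for copper against controls and 0.23 for lead against controls. Against the controls, 1838 genes were called in copper (7.57%) and 1584 in lead (6.52%). Those 2 comparisons share their controls. The 4 copper and 4 lead CPM values did not overlap in 958 genes (3.94%).

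The size of the contrast depended on the pair of replicates. Within replicates 1 and 2 alone 1120 of 21703 genes were called (5.16%), and within replicates 3 and 4 alone 127 of 20365 (0.624%). Of 563 genes called over all 4 replicates and tested in both pairs, 537 had the same sign in both. Those calls used both pairs, which favours equal signs. In 418 the difference was larger in replicates 1 and 2, and the median absolute difference was 0.85 there against 0.50 in replicates 3 and 4. Of 1119 genes called in replicates 1 and 2 alone, 727 had the same sign in replicates 3 and 4 (65.0%). Over all genes tested in both pairs that share was 51.3%. Of 75 genes called in each pair alone, 69 went the same way. A direct test of the difference between the pairs called 245 genes (1.01%). Without the term for the pair the contrast called 201 genes, and in the 8 libraries alone with the replicate number as a block it called 313. Leaving out Copper 25 replicate 1 left 358 calls, leaving out its replicate 2 left 364, and leaving out Lead 25 replicate 1 left 365.

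**Figure D1:**
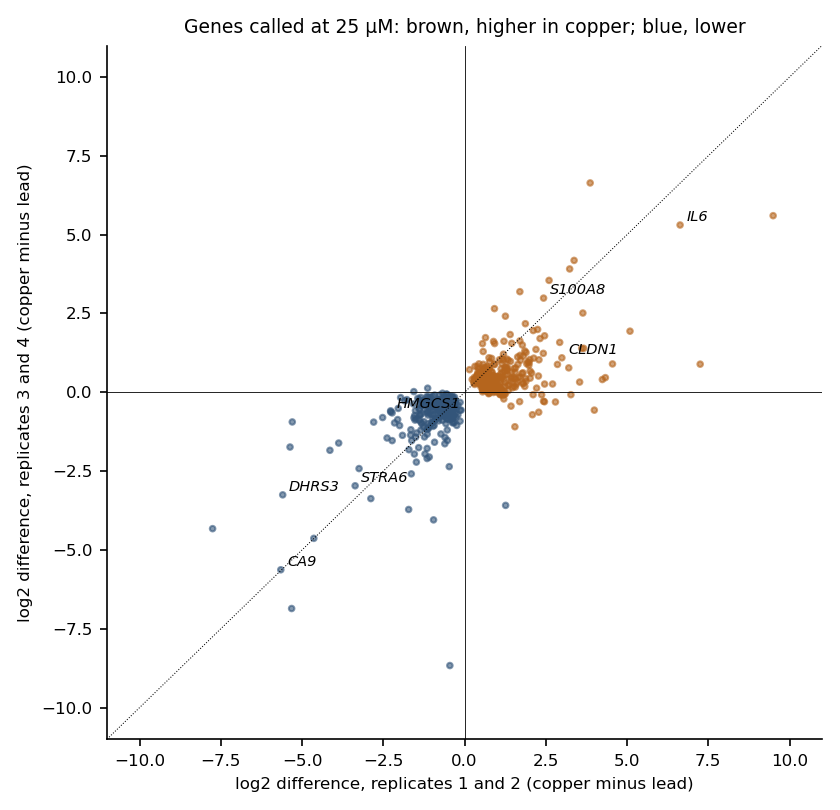
Each point is 1 of the 563 genes called at 25 µM and tested in both pairs of replicates; the horizontal axis is the log2 difference of copper over lead in replicates 1 and 2, the vertical axis the same in replicates 3 and 4, and the dotted line marks equal values. Most points lie in the quadrants of equal sign, and 418 of the 563 are farther from 0 on the horizontal axis than on the vertical one. The genes were called over both pairs together, which favours equal signs.

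The smallest p belonged to a gene of vitamin A handling. DHRS3, the reductase that turns retinal back into retinol and that retinoic acid itself induces, measured 9.03, 6.999, 37.4 and 37.4 CPM in the 4 copper libraries and 382, 411, 366 and 351 CPM in the 4 lead libraries. Every copper library lay below every lead library and below every water control (200 to 259 CPM in controls 1 to 8 and 239 to 356 CPM in controls 10 to 16). The difference was -4.19 ± 0.24, an 18.2-fold lower level in copper (edgeR adjusted p = 1.65e-29). It was -5.60 in replicates 1 and 2 and -3.25 in replicates 3 and 4, and the change between the pairs passed its own edgeR test (2.34 ± 0.25, adjusted p = 3.31e-11). Both metals moved away from the controls, in opposite directions: copper by -3.62 ± 0.22 (edgeR adjusted p = 2.95e-28) and lead by 0.57 ± 0.14 (edgeR adjusted p = 0.00373).

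STRA6, the membrane receptor that takes retinol up from its carrier protein, measured 2.84, 4.11, 2.87 and 2.47 CPM in copper and 34.8, 35.2, 22.5 and 19.4 CPM in lead. The groups did not overlap, as the naming rule required, and the copper level was 9.41-fold lower (-3.23 ± 0.34, edgeR adjusted p = 2.05e-12). Copper lay below the controls by 3.72 on the log2 scale, whereas the lead difference from the controls, -0.48 ± 0.18, did not pass (edgeR adjusted p = 0.0914). Other genes of the pathway were looked up after these values were seen. RARRES1, a retinoid-responsive gene, was lower in copper (-2.08 ± 0.59, edgeR adjusted p = 0.0338) from levels of at most 5.89 CPM. CYP26B1, which breaks down retinoic acid, had a difference of -0.59 ± 0.29, and ALDH1A3, which makes it, one of -0.42 ± 0.19. Neither passed (edgeR adjusted p = 0.413 and 0.324).

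The promoter window of STRA6 is shown because retinoic acid receptors bind pairs of a short half-site and the gene is known as retinoid-responsive. The sequence is from RefSeq (GRCh38.p14, chr15:74212210-74212509, minus strand), running from 250 bases before to 50 after 1 of its 5 listed start sites. Capitals mark NGNTCA repeated in the same direction with 5 bases between, on either strand, which 0.723% of the 35116 promoter windows of this length hold.
STRA6: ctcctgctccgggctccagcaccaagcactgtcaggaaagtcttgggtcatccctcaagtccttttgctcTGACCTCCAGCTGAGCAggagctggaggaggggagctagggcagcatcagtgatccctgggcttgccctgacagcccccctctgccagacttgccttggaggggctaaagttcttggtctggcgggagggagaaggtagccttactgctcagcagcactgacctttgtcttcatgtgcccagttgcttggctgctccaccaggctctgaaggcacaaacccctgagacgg
None of the 3 windows listed for DHRS3 holds that pair. A match or its absence in such a window is a description of letters and says nothing of which factor is bound.

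Further genes low in copper had diverse roles. SULT1E1, which sulfates and so inactivates estrogens, measured 0.466, 0.193, 4.90 and 4.55 CPM in copper and 13.5, 15.02, 8.82 and 9.63 CPM in lead (-2.37 ± 0.41, edgeR adjusted p = 1.35e-05). Its copper values split by pair, with differences of -5.30 in replicates 1 and 2 and -0.94 in replicates 3 and 4. FAM20C, the kinase that phosphorylates secreted proteins, was steadier. It measured 21.3, 26.1, 21.97 and 21.4 CPM in copper against 76.3, 77.5, 78.9 and 75.2 CPM in lead (-1.76 ± 0.17, edgeR adjusted p = 1.91e-14), and copper fell below the controls (-1.21) where lead rose above them (0.54). FBXO32, a ubiquitin ligase subunit known from muscle wasting, was at 19.2, 16.4, 4.46 and 5.24 CPM in copper and at 58.3, 53.5, 25.3 and 33.97 CPM in lead (-1.88 ± 0.20, edgeR adjusted p = 3.76e-12). Of the same set, TAGLN and MYL9 encode proteins of the contractile actin cytoskeleton. TAGLN differed by -1.91 ± 0.27 and MYL9 by -1.57 ± 0.20, and both rose above controls in lead (0.90 and 1.18). HOXA3, a homeobox factor, differed by -1.55 ± 0.26, and SLC16A14, of the monocarboxylate transporter family, by -1.51 ± 0.23.

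CA9, the cell-surface carbonic anhydrase that hypoxia-inducible factor induces, was close to absent in copper. It summed to 4 counts over the 4 copper libraries and to 236 over the 4 lead libraries, where it measured 3.21, 3.11, 3.45 and 4.62 CPM. The ratio of lead to copper was 57.96, with a 95% exact interval of 22.3 to 214.5 that covers counting error only. The controls ranged from 17.2 to 28.4 CPM in controls 1 to 8 and from 1.26 to 9.98 CPM in controls 10 to 16. Every copper library was below all of them, lead replicates 1 and 2 were below controls 1 to 8, and lead replicates 3 and 4 lay within the range of controls 10 to 16. The call was lost without the pair term (-5.66, edgeR adjusted p = 0.357). Of 21 genes of glycolysis and hypoxia, CA9 and the aldolase ALDOC (-0.88 ± 0.20) were lower in copper, none was higher, and the median was -0.10. The ALDOC call was lost in the 8 libraries alone with the replicate block (edgeR adjusted p = 0.0568), without the pair term (0.391) and without Copper 25 replicate 2 (0.0932). The window of CA9 (RefSeq, GRCh38.p14, chr9:35673678-35673977, plus strand) is shown with the core letters of the hypoxia response element, ACGTG on either strand, in capitals. Such letters are in 21.4% of all windows.
CA9: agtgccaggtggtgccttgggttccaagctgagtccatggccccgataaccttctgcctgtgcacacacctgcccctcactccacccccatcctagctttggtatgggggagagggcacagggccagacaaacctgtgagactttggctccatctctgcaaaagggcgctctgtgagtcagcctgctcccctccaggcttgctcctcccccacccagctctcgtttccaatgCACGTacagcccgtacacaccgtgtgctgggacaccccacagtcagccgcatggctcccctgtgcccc

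**Figure D2:**
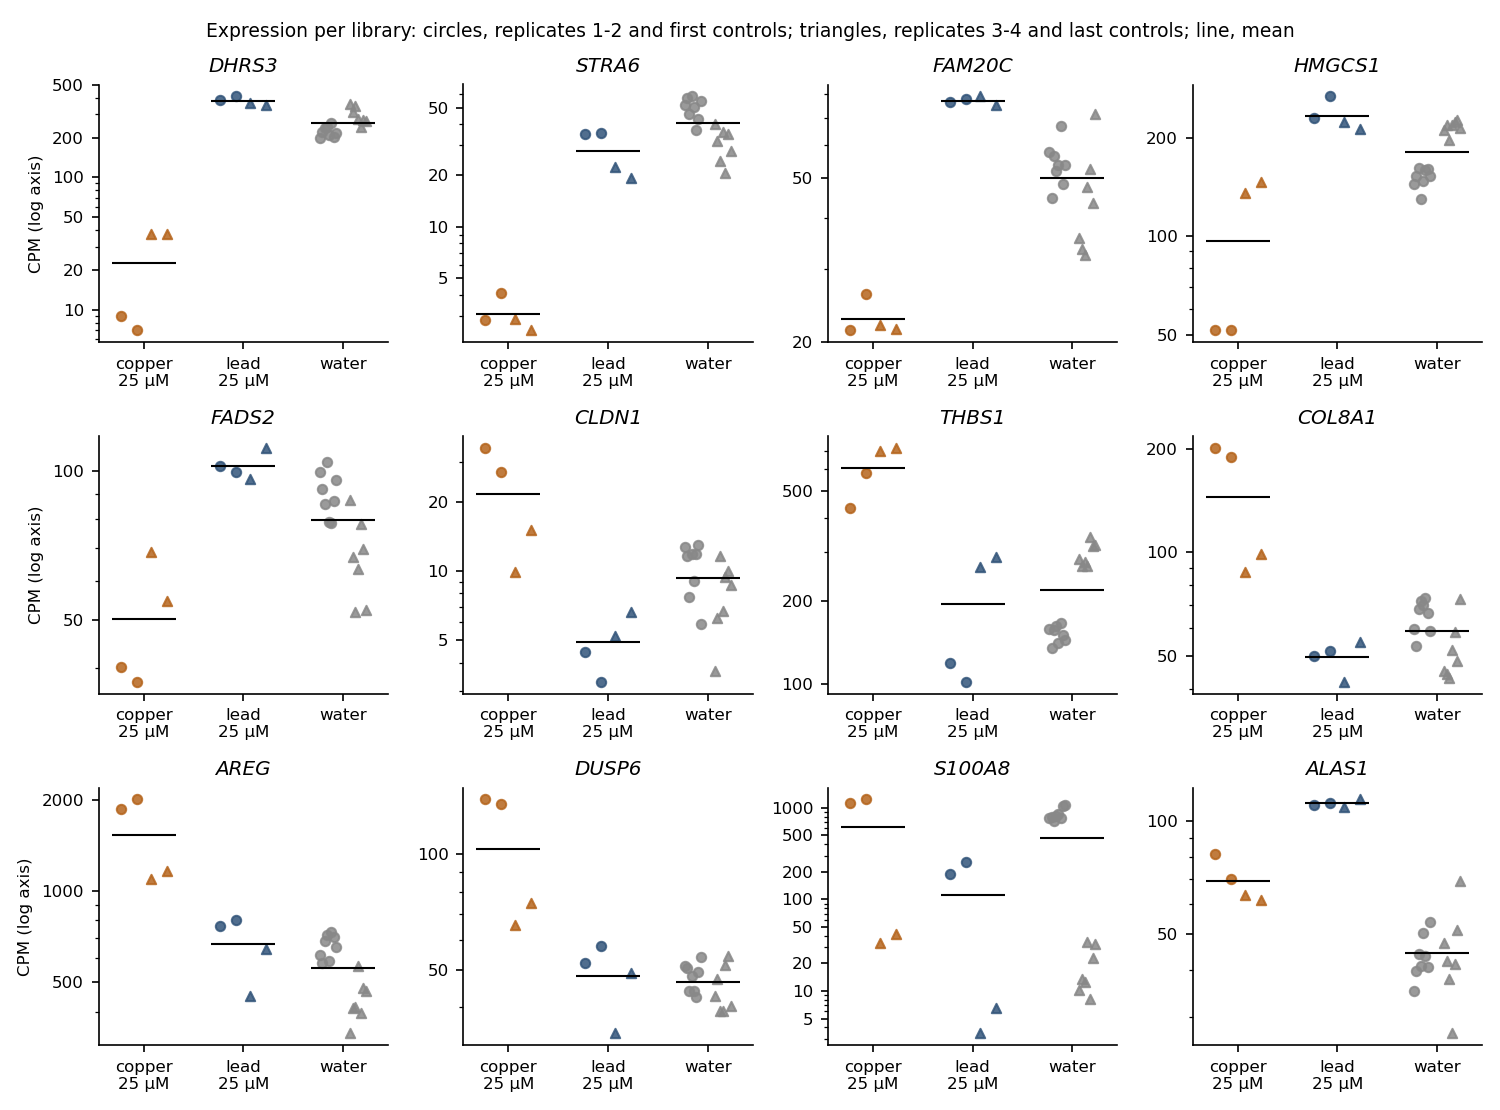
CPM of 12 genes on log axes in the 4 Copper 25 libraries, the 4 Lead 25 libraries and the 15 water controls; circles are replicates 1 and 2 or controls 1 to 8, triangles replicates 3 and 4 or controls 10 to 16, and lines are means. DHRS3, STRA6 and FAM20C separate by metal in all 8 libraries, as the rule that named them required. S100A8 separates first by pair of replicates.

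Genes of cholesterol and fatty acid synthesis are switched on by the SREBP factors, usually with the CCAAT-binding factor NF-Y, when membrane sterol is low. Of 28 genes of this list tested, 18 were lower in copper, 0 were higher, and 10 did not pass, against 1.16% of all genes called lower. All 28 fitted differences were negative and their median was -0.56, against 0.0034 over all genes tested. The summed level of the list was 2972 to 4715 CPM in copper, 5339 to 6185 in lead and 5118 to 5559 in the controls, so the copper range lay under both others.

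HMGCS1, which makes the HMG-CoA from which sterols are built, measured 51.5, 51.6, 136 and 147 CPM in copper and 231, 269, 224 and 213 CPM in lead. Copper replicates 1 and 2 were far lower than replicates 3 and 4, and no copper value reached the lead range. The difference was -1.36 ± 0.15 (2.57-fold lower, edgeR adjusted p = 3.74e-12). INSIG1, the sterol-sensing anchor that holds SREBP back, measured 36.5, 51.8, 93.1 and 90.0 CPM in copper and 147, 165, 106 and 117 CPM in lead (-0.97 ± 0.15, edgeR adjusted p = 1.23e-06). FADS2, the first desaturase of polyunsaturated fatty acids, stood at 40.2, 37.4, 68.5 and 54.5 CPM against 103, 99.6, 96.4 and 111.5 CPM (-1.04 ± 0.14, edgeR adjusted p = 2.66e-08). STARD4, a cholesterol carrier, stood at 12.3, 10.8, 24.0 and 26.8 CPM against 30.9, 29.7, 35.2 and 37.8 CPM (-0.90 ± 0.19, edgeR adjusted p = 0.000573). In these 4 genes the copper and lead values did not overlap.

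The other called members ran along the whole path. In the mevalonate arm they were FDPS (-0.86), IDI1 (-0.68), MVD (-0.53) and MVK (-0.45). In the squalene and later sterol steps they were EBP (-0.75), MSMO1 (-0.72), LSS (-0.67), FDFT1 (-0.60), DHCR7 (-0.48) and SQLE (-0.35). In fatty acid synthesis and desaturation they were SCD (-0.84), FADS1 (-0.70), FASN (-0.67) and ELOVL6 (-0.60). The regulators SREBF1 (-0.27) and SREBF2 (-0.12) did not pass. Against the controls the median of the list was -0.46 in copper and 0.10 in lead. Lead itself lay above the controls in MSMO1 (0.51), FADS1 (0.50), STARD4 (0.47) and HMGCS1 (0.42).

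The sterol contrast was mostly one of replicates 1 and 2. Within them 22 of the 28 genes were lower in copper with a median of -0.90, where 5.16% of all genes were called in either direction. Within replicates 3 and 4 there were 3 with a median of -0.22, where 0.624% of all genes were called. The test of the difference between pairs called 11 of the 28, against 1.01% of all genes. All 11 had a smaller gap in replicates 3 and 4, HMGCS1 (1.64 ± 0.19) and INSIG1 (1.56 ± 0.23) among them. The count was 15 without the pair term, 13 in the 8 libraries alone with the replicate block, and 14 to 21 when any 1 of the 8 libraries was left out.

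The promoter windows of 3 of these genes are printed because NF-Y and SREBP are known to act on promoters of this pathway. They are from RefSeq (GRCh38.p14): HMGCS1 at chr5:43313363-43313662 on the minus strand, INSIG1 at chr7:155297628-155297927 on the plus strand and FADS2 at chr11:61816154-61816453 on the plus strand. Capitals mark CCAAT on either strand, so that ATTGG is the same box read from the other strand. Relative to the start site the boxes begin at -155 and -100 in HMGCS1 and at -170 in INSIG1. In FADS2 the box begins at 5, after the start site. HMGCS1 and FADS2 have 2 listed windows each, of which 1 is shown. The genes shown were chosen after their values were seen. The marked letters describe the sequence only and say nothing of which factor is bound.
HMGCS1: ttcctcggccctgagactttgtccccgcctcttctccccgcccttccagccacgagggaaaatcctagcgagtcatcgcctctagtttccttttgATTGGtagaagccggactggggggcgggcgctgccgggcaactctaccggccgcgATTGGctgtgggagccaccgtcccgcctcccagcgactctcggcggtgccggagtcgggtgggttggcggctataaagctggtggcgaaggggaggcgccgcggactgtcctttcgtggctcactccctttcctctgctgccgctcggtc
INSIG1: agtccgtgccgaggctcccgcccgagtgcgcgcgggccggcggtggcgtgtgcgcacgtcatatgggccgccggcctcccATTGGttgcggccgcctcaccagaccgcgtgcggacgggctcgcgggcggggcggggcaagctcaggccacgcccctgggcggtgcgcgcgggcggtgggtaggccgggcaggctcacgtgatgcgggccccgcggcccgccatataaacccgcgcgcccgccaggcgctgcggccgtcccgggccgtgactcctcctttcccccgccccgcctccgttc
FADS2: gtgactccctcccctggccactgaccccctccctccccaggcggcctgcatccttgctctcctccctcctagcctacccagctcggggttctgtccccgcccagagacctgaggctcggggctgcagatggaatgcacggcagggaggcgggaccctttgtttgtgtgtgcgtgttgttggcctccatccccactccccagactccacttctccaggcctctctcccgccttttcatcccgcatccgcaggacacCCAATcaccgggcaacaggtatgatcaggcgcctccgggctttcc
Of the 18 lower genes 15 had a window, and 13 of those held CCAAT in at least 1. Of the 10 list genes that did not pass 7 had a window, and 5 of those held it. Among all 27305 genes with a window the share was 39.7%.

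Genes higher in copper included ligands of the epidermal growth factor receptor and genes of ERK feedback. MCF10A cells are grown with added EGF, and ERK signalling is known to induce both its own phosphatases and the receptor's ligands. Of 21 such genes 9 were higher in copper, 0 lower and 12 did not pass, with a median of 0.30 and with 1.16% of all genes called higher. AREG, the ligand amphiregulin, measured 1870, 2007, 1094 and 1163 CPM in copper and 767, 802, 452 and 645 CPM in lead, so all copper libraries were above all lead libraries (1.20 ± 0.13, 2.29-fold, edgeR adjusted p = 6.67e-12). DUSP6, the phosphatase that inactivates ERK, measured 139, 134.8, 65.6 and 74.6 CPM in copper and 52.1, 57.9, 34.3 and 49.3 CPM in lead (1.11 ± 0.13, edgeR adjusted p = 3.83e-10). The AREG and DUSP6 differences passed in each pair of replicates alone.

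EGR1, an immediate early transcription factor, stood at 162, 155, 105 and 118 CPM in copper and at 55.3, 44.5, 67.8 and 94.8 CPM in lead (1.10 ± 0.15, edgeR adjusted p = 1.41e-08). Its gap shrank from 1.66 in replicates 1 and 2 to 0.48 in replicates 3 and 4, and that change passed the edgeR test (-1.19 ± 0.23, adjusted p = 0.000744). FOS, another immediate early factor, was at 51.97, 58.1, 24.5 and 19.7 CPM against 15.95, 25.98, 9.51 and 13.9 CPM (1.26 ± 0.24), and the groups overlapped. The call on FOS was lost without the pair term (edgeR adjusted p = 0.346). The ligand EPGN (0.96 ± 0.16) and the feedback genes DUSP5 (1.09 ± 0.19), SPRY4 (0.70 ± 0.15), SPRY2 (0.59 ± 0.15) and IER3 (0.45 ± 0.13) completed the 9. The ligands EREG (0.24 ± 0.19), TGFA (0.38 ± 0.18) and HBEGF (-0.13 ± 0.31) did not pass. Against controls the median of the list was 0.83 in copper and 0.35 in lead. The count was 4 without the pair term and 2 within replicates 3 and 4.

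ERRFI1, an inhibitor that binds the EGF receptor and that ERK induces, was outside the list and among the 10 largest differences. It measured 169, 139, 75.0 and 77.3 CPM in copper and 50.1, 49.4, 43.4 and 38.9 CPM in lead (1.30 ± 0.14, edgeR adjusted p = 2.51e-12). Here the copper difference from the controls did not pass (0.08 ± 0.10, edgeR adjusted p = 0.816), and lead lay below them (-1.22 ± 0.12, edgeR adjusted p = 2.06e-14). KRT80, a keratin of epithelial cells, gave like calls, with 1.61 ± 0.31 between the metals, -0.30 ± 0.20 for copper and -1.91 ± 0.26 for lead. IL7R, the interleukin-7 receptor chain, differed by 1.86 ± 0.31, with 0.29 ± 0.20 for copper and -1.57 ± 0.28 for lead. DENND3, an activator of Rab GTPases, differed by 1.27 ± 0.27, with 0.29 ± 0.19 for copper and -0.98 ± 0.24 for lead. Its call was lost without Lead 25 replicate 1 (1.01, edgeR adjusted p = 0.0584).

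A minority of the listed matrix and adhesion genes was called. Of 31 tested, 9 were higher in copper, 1 lower and 21 did not pass, against 1.16% of all genes in each direction, with a median of 0.14. THBS1, a matricellular glycoprotein that restrains vessel growth, measured 434, 585, 699 and 719 CPM in copper and 119, 102, 266 and 289.9 CPM in lead. All copper values exceeded all lead values (1.79 ± 0.17, 3.46-fold, edgeR adjusted p = 1.43e-14), and the contrast passed in each pair alone (2.20 and 1.36). COL8A1, a short-chain collagen, measured 201, 189.6, 87.3 and 99.0 CPM in copper and 49.9, 51.7, 41.9 and 54.7 CPM in lead (1.58 ± 0.20, edgeR adjusted p = 1.76e-09).

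Laminins anchor basal cells to the basement membrane, and chains of them were called in both directions. LAMA4, outside the list, was lower in copper (-5.24). LAMB3 stood at 2433, 2401, 1126 and 1388 CPM in copper and at 622, 686, 943 and 1041 CPM in lead (1.22 ± 0.17, edgeR adjusted p = 3.86e-08). LAMA3 differed by 0.85 ± 0.14. LAMB3 and LAMA3 had large gaps in replicates 1 and 2 (1.89 and 1.47) and small ones in replicates 3 and 4 (0.35 and 0.14), and the change between pairs was called for each. Further higher members were CCN2, ITGA2, ITGB4 and LAMB1 (0.50 to 0.62), and TGFBI, a secreted adhesion protein, was the lower one (-0.52 ± 0.08). The list's count of higher genes was 4 without the pair term, 2 within replicates 3 and 4, and 6 without Copper 25 replicate 1 or without its replicate 2. Called matrix genes outside the list, looked up after these values were seen, went both ways. POSTN (-1.57) and LOXL2 (-1.01) were lower in copper, and PXDN (0.56) and LTBP1 (0.42) were higher.

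CLDN1, a claudin of tight junctions, had the largest positive difference among genes named by the rule for non-overlapping groups. It measured 34.6, 27.2, 9.93 and 15.1 CPM in copper and 4.45, 3.30, 5.21 and 6.63 CPM in lead (2.23 ± 0.29, 4.70-fold, edgeR adjusted p = 4.59e-09). Copper lay above the controls (1.17 ± 0.20) and lead below them (-1.06 ± 0.29). INSC, a polarity adaptor of dividing cells, was at 30.2, 42.6, 25.0 and 31.3 CPM in copper against 5.18, 4.63, 13.3 and 17.7 CPM in lead (1.78 ± 0.25, edgeR adjusted p = 3.86e-08). ZFP36L2, which binds AU-rich mRNAs and speeds their decay, was at 245, 246.5, 187 and 153 CPM against 51.2, 67.4, 119.8 and 103.9 CPM (1.30 ± 0.13, edgeR adjusted p = 5.67e-14). HS3ST3B1, a heparan sulfate sulfotransferase, differed by 1.496 ± 0.24.

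Basal keratins followed the pair of replicates. KRT5 and KRT14 are the paired keratins of basal epithelium, and KRT17 and KRT6A are keratins of activated or wounded epithelium. Of 10 basal markers 6 were higher in copper and 0 lower, against 1.16% of all genes called higher, with a median of 0.65. These were KRT14 (1.49 ± 0.23), KRT17 (1.33 ± 0.20), LAMB3, KRT5 (0.85 ± 0.11), KRT6A (0.67 ± 0.10) and ITGB4 (0.51 ± 0.13). LAMB3 and ITGB4 stand in the matrix list too. KRT17 measured 2346, 2330, 724 and 645 CPM in copper and 434, 418, 722 and 975.2 CPM in lead, so that replicates 1 and 2 parted by metal and replicates 3 and 4 did not. Within replicates 1 and 2 the median of the list was 1.21 with 7 of 10 called (5.16% of all genes there), and within replicates 3 and 4 it was 0.04 with 0 called. All 6 called genes also passed the test of the change between pairs. The count was 3 in the 8 libraries alone with the replicate block. Reads of keratin genes with near copies could be split between them in counting, so the single keratins are less certain than the group.

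Calprotectin genes parted by metal inside each pair. S100A8 measured 1132, 1242, 33.2 and 42.3 CPM in copper and 189, 253, 3.45 and 6.55 CPM in lead. The groups overlapped because replicates 1 and 2 were far above replicates 3 and 4 in both metals, and controls 1 to 8 (726 to 1078 CPM) were likewise above controls 10 to 16 (8.19 to 34.5 CPM). The difference was 2.38 ± 0.29 (5.22-fold, edgeR adjusted p = 4.18e-10), with 2.43 in replicates 1 and 2 and 2.99 in replicates 3 and 4, each past the test alone. Its partner S100A9 differed by 2.11 ± 0.28. Lead lay below the controls in both (-1.995 ± 0.26 and -1.79 ± 0.25), and the copper differences from them did not pass (0.39 ± 0.21 and 0.32 ± 0.20). The calls on both were lost without the pair term (edgeR adjusted p = 0.696 and 0.676). Of the other 12 S100 genes tested S100A2 was lower in copper (1121, 1244, 1522 and 1607 CPM against 2389, 2014, 2314 and 3174 CPM, -0.85 ± 0.12, edgeR adjusted p = 4.16e-08), and 11 did not pass.

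**Figure D3:**
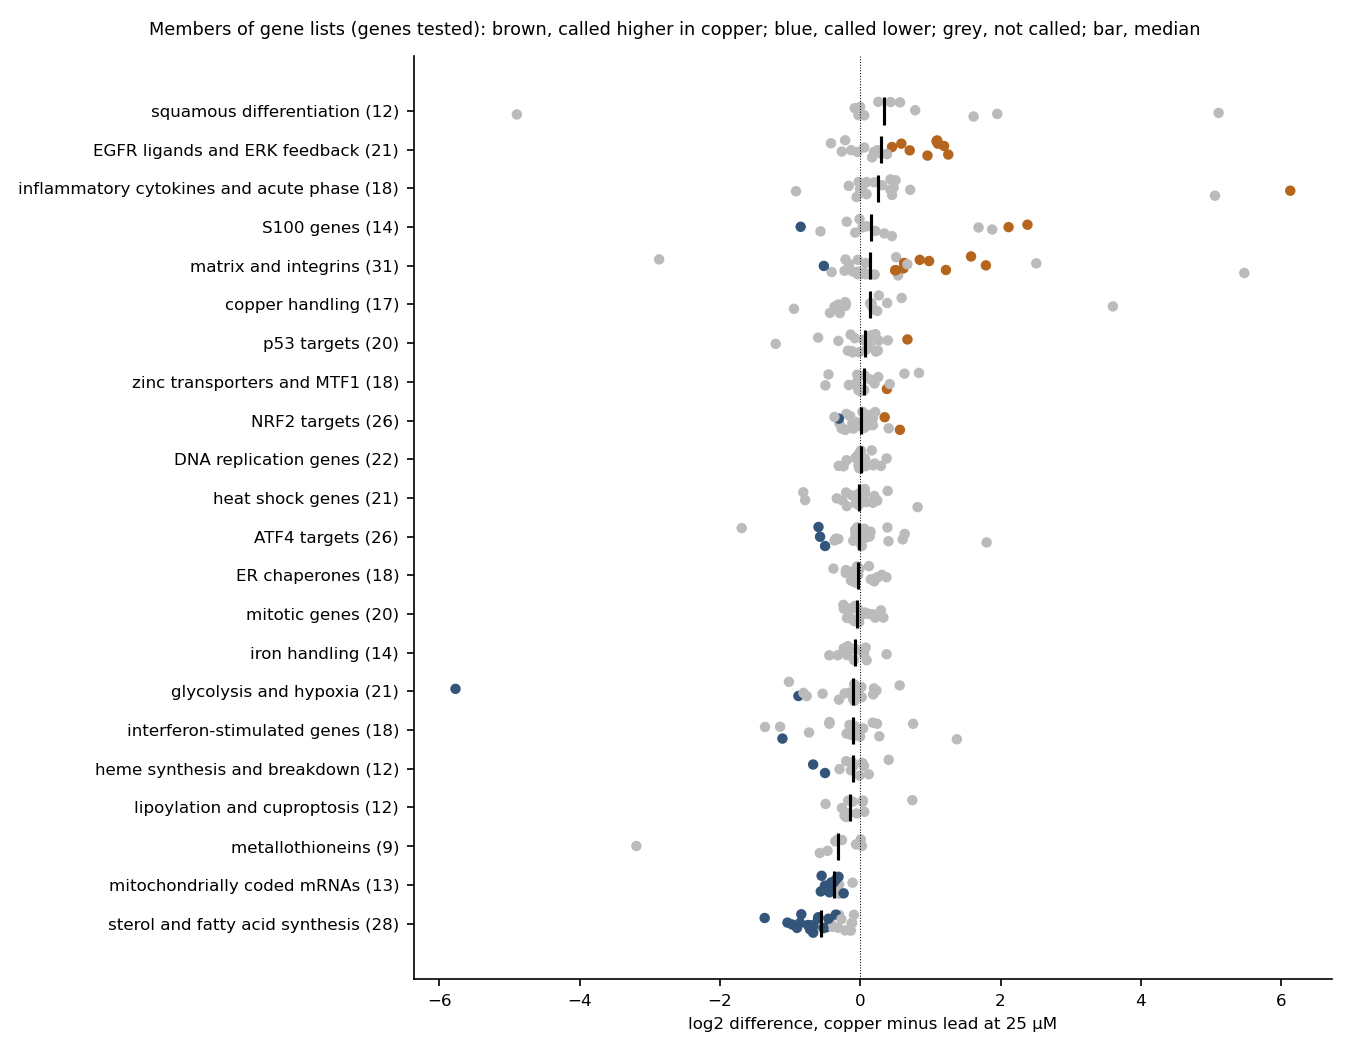
Log2 difference of copper over lead at 25 µM (horizontal axis) for the tested members of 22 gene lists; each point is a gene, brown where called higher in copper, blue where called lower, grey where not called, and the bar is the list's median. The sterol and fatty acid list lies wholly below 0 with a median of -0.56, and the NRF2 and heat shock lists centre on 0.

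Most messenger RNAs coded by mitochondrial DNA were called lower in copper. These transcripts encode core subunits of the respiratory chain. Of 13, 10 were called lower and 0 higher, against 1.16% of all genes called lower, all 13 fitted differences were negative, and the median was -0.37. MT-ATP6, an ATP synthase subunit, measured 1604, 1461, 1303 and 1117 CPM in copper and 2633, 2265, 1685 and 1617 CPM in lead (-0.56 ± 0.08, edgeR adjusted p = 2.51e-07). MT-ND4L differed by -0.50 ± 0.09, MT-ATP8 by -0.55 ± 0.14 and MT-CO2 by -0.44 ± 0.09. The MT-ATP8 call was lost without Copper 25 replicate 2, Lead 25 replicate 1 or Lead 25 replicate 2 (edgeR adjusted p = 0.0564 to 0.0922). MT-ATP8 overlaps MT-ATP6 and MT-ND4L overlaps MT-ND4 on the mitochondrial genome, so reads of each pair could be shared in counting. Against the controls, MT-ATP6 was called lower in copper (-0.24 ± 0.07) and higher in lead (0.32 ± 0.06). MT-ND4L was called in lead only (0.35 ± 0.07, with -0.15 ± 0.07 in copper). MT-CO2 was called in copper only (-0.24 ± 0.07, with 0.20 ± 0.07 in lead). MT-ATP8 was called against the controls in neither metal (-0.29 ± 0.12 in copper and 0.26 ± 0.11 in lead). As a share of all counts the 13 mRNAs took 3.98% ± 0.42 (SD, n = 4) in copper and 4.95% ± 0.81 (SD, n = 4) in lead, which an exact two-sided permutation test over libraries put at p = 0.0571 (adjusted 0.171). The count of 10 became 0 without the pair term, 4 without Copper 25 replicate 2 and 5 without Lead 25 replicate 1.

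Few metal-binding and metal-handling genes were called. Of 9 metallothionein genes tested 0 were called by edgeR, with a median of -0.32. MT1H, MT1A and MT1B, which enter that count and median, read 0 in all 8 libraries and in all controls and so could not be called. Within replicates 1 and 2, 2 of 7 tested were lower in copper, where 5.16% of all genes were called in either direction. With the replicate block 2 of 9 were lower over the dosed libraries and 2 of 5 in the 8 libraries alone, and 2 of 5 were also lower there without the block. MT2A, the most abundant of them, measured 10560, 11970, 6145 and 6105 CPM in copper and 14070, 12990, 6117 and 8541 CPM in lead. Its difference was -0.26 with a 95% interval of -0.49 to -0.03, and it did not pass (edgeR adjusted p = 0.326). Both metals lay above the controls (0.41 ± 0.09 for copper and 0.67 ± 0.09 for lead). MT1X differed by -0.58 (interval -0.97 to -0.19, edgeR adjusted p = 0.125), and the replicate block over the dosed libraries took it past the threshold (edgeR adjusted p = 0.0491). MT1E stood at 560.1 to 1125 CPM in copper and 559 to 1558 CPM in lead, and differed by -0.47 ± 0.14 (edgeR adjusted p = 0.054). These genes are near copies of one another, so their counts may be shared. SLC30A1, the zinc exporter that MTF1 induces, differed by -0.45 (interval -0.74 to -0.17, edgeR adjusted p = 0.0764) and was above the controls in lead (0.53 ± 0.12). Without Copper 25 replicate 1 the SLC30A1 difference passed (-0.57, edgeR adjusted p = 0.0377).

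Of 17 copper handling genes 0 were called by edgeR, with a median of 0.14. Within replicates 1 and 2, 2 of 17 were lower, where 5.16% of all genes were called in either direction. The call count became 1 of 17, lower in copper, with the replicate block over the dosed libraries, and 1 of 16 in the 8 libraries alone, where the median was -0.03. The importer SLC31A1 stood at 43.1, 36.5, 48.8 and 52.5 CPM in copper and at 56.7, 52.5, 56.1 and 54.5 CPM in lead (-0.29, interval -0.53 to -0.05, edgeR adjusted p = 0.279). The exporter ATP7A, at 1.93 to 8.22 CPM, had an interval of -0.44 to 0.92. The chaperone ATOX1 differed by -0.43 ± 0.14 (edgeR adjusted p = 0.083). Of 18 zinc transporter genes and MTF1, SLC39A13 was called higher (0.38 ± 0.11, edgeR adjusted p = 0.0456), and 12 of 18 alternative settings took that call away, the replicate block in the 8 libraries alone among them (edgeR adjusted p = 0.169). None of 12 lipoylation and cuproptosis genes was called by edgeR (median -0.14), nor any of 14 iron handling genes (median -0.08).

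Heme synthesis separated the metals at its first step. ALAS1, which begins the pathway and is repressed by heme, measured 81.5, 69.8, 63.4 and 61.5 CPM in copper and 110.3, 111.9, 108.8 and 114.2 CPM in lead. The lead libraries were tightly grouped and all above the copper ones, and the controls ranged from 27.1 to 69.2 CPM. The difference was -0.67 ± 0.12 (edgeR adjusted p = 3.12e-05) and passed in each pair alone. Both metals lay above the controls, copper by 0.64 ± 0.11 and lead by 1.32 ± 0.10. BLVRB, a biliverdin and flavin reductase, was lower in copper too (-0.50 ± 0.13, edgeR adjusted p = 0.0143), a call lost under the replicate block in the 8 libraries alone (edgeR adjusted p = 0.135), without the pair term (0.605) and without Copper 25 replicate 4, Lead 25 replicate 3 or Lead 25 replicate 4 (0.0787 to 0.137). For the enzymes that lead is known to inhibit the mRNA differences did not pass: ALAD had an interval of -0.24 to 0.35 and FECH one of -0.32 to 0.13. Of the 12 heme genes 10 were not called.

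Genes of the NRF2 antioxidant response had high medians against the controls in both metals. NRF2 is the factor that electrophiles and reactive metals release from KEAP1. The median of 26 targets against the controls was 0.85 in copper and 0.88 in lead, and between the metals it was 0.02. SLC7A11, the cystine importer, stood at 149, 134.6, 127 and 139.7 CPM in copper and at 214, 157, 176 and 162 CPM in lead, where the controls reached 61.9 CPM. Its difference had an interval of -0.70 to -0.03 (edgeR adjusted p = 0.362). HMOX1, heme oxygenase, went opposite ways in the pairs. It measured 39.8 and 38.8 CPM in copper against 24.8 and 15.3 CPM in lead in replicates 1 and 2, and 6.30 and 6.25 CPM against 16.3 and 13.4 CPM in replicates 3 and 4. The change between pairs passed (-2.21 ± 0.42, edgeR adjusted p = 0.000455). AKR1C2 (0.57 ± 0.14) and the transporter ABCC3 (0.35 ± 0.09) were called higher in copper. Both calls were lost without the pair term and without Copper 25 replicate 1. Calls were also lost without Lead 25 replicate 3 for AKR1C2 and without Lead 25 replicate 1 for ABCC3. That of ABCC3 was lost under the replicate block in the 8 libraries alone (edgeR adjusted p = 0.0718). Aldo-keto reductases of the AKR1C group are near copies, so AKR1C2 is uncertain as a single gene.

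Protein-folding and amino acid stress genes gave few differences. Of 21 heat shock genes 0 were called by edgeR, with a median of -0.02. Within replicates 1 and 2, 1 was higher and 3 lower in copper, where 5.16% of all genes were called. HSPA1A, the inducible HSP70, was at 25.3, 21.2, 24.5 and 15.1 CPM in copper and at 39.5, 30.8, 40.2 and 42.4 CPM in lead. Its groups did not overlap, the difference was -0.79 (interval -1.27 to -0.30, edgeR adjusted p = 0.0737), and the replicate block took it past the threshold (edgeR adjusted p = 0.0231 over the dosed libraries and 0.0236 in the 8 libraries alone). HSPA1B is a near copy with a difference of -0.81 ± 0.30. Of 18 chaperones of the endoplasmic reticulum 0 were called (median -0.04), 1 was higher with the replicate block, and HSPA5 had an interval of -0.02 to 0.42. Of 26 ATF4 targets 3 were lower in copper, against 1.16% of all genes called lower, 23 did not pass, and the median was -0.02. The 3 were the amino acid transporter chains SLC7A5 (-0.60 ± 0.10) and SLC3A2 (-0.50 ± 0.09) and the serine synthesis enzyme PHGDH (-0.57 ± 0.10). ATF3, a stress factor of that list, had an interval of 0.60 to 2.999 (edgeR adjusted p = 0.108) and passed without Copper 25 replicate 3 (0.0172) or replicate 4 (0.0461). SLC7A5 measured 451, 429, 876 and 889.5 CPM in copper and 581, 639, 1597 and 1271 CPM in lead, lower in copper inside each pair. The calls on SLC7A5 and SLC3A2 were lost without the pair term (edgeR adjusted p = 0.671 and 0.257).

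Few genes of the proliferation lists were called. Of 20 mitotic genes 0 were called over all 4 replicates, with a median of -0.04. Within replicates 1 and 2, 6 were lower in copper (median -0.27), where 5.16% of all genes were called in either direction. Within replicates 3 and 4, 1 was higher (median 0.25), where 0.624% of all genes were called. The test of that change called 4 of 20, against 1.01% of all genes: CENPF, CENPE, AURKB and TPX2. The change in CCNB1, the mitotic cyclin, did not pass (0.48, edgeR adjusted p = 0.2). It measured 213 and 251.3 CPM in copper against 316 and 339.7 CPM in lead in replicates 1 and 2, and 347 and 409 CPM against 390.1 and 375 CPM in replicates 3 and 4. Of 22 replication genes 0 were called (median 0.01), and MCM7 passed the test of the change between pairs. Cell cycle genes outside these lists, looked up after these values were seen, were called in both directions. SKA2 (-0.65), CDC25C (-0.58), CENPW (-0.53), CDKN3 (-0.50), PCLAF (-0.43) and TK1 (-0.37) were lower in copper. CCNA1 (0.76) and CDK5RAP2 (0.65) were higher. Of 20 p53 targets PLK3 was higher in copper (0.67 ± 0.16), and CDKN1A, the p21 cell cycle inhibitor, had an interval of 0.03 to 0.49 and did not pass (edgeR adjusted p = 0.321), though it did without Copper 25 replicate 3 (0.0491) or replicate 4 (0.0174). The PLK3 call was lost without the pair term (edgeR adjusted p = 0.051), without Copper 25 replicate 1 (0.13) and without Lead 25 replicate 1 (0.0716).

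Among 18 cytokine and acute phase genes IL6 was the only one called over all 4 replicates. It measured 4.14, 3.08, 1.34 and 1.93 CPM in copper and summed to 183 counts there against 2 counts in lead, a ratio of 93.1 with a 95% exact interval of 25.4 to 774.9 for counting error. The control libraries ranged from 0.158 to 3.93 CPM in controls 1 to 8, and controls 10 to 16 all read 0. The median of the list was 0.26. Of 18 interferon-stimulated genes ISG15 was called lower in copper (-1.11 ± 0.29, edgeR adjusted p = 0.0153). Its call was lost with DESeq2 (adjusted p = 0.227), under the replicate block in the 8 libraries alone (edgeR adjusted p = 0.0591), without the pair term (0.268), and without Copper 25 replicate 1, Copper 25 replicate 3 or Lead 25 replicate 1 (0.0536 to 0.113). None of 12 squamous differentiation genes was called (median 0.34), and most were near 0 CPM.

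Markers of the line and of other cells were checked beside these groups. Basal markers of the epithelial line were abundant, with sums of 6110 to 11550 CPM in copper and 3858 to 5999 CPM in lead. Of 7 luminal markers tested KRT8 was lower in copper (-0.35 ± 0.10), and KRT18 stood at 449 to 501 CPM with no call. The luminal count was 0 without the pair term and in the 8 libraries alone, with or without the replicate block. It was also 0 without Copper 25 replicate 1, without its replicate 2 and within replicates 1 and 2, where KRT8 differed by -0.11. Of 4 immune markers tested CD14 was lower (9.93 to 19.7 CPM in copper, 20.2 to 58.8 CPM in lead, -1.48 ± 0.19), while ITGAM was at 0 in all 8 libraries and PTPRC was at 0 in the 4 copper libraries and at most 0.693 CPM in lead. The summed immune level was 10.7 to 19.7 CPM in copper, 20.9 to 58.8 in lead and 20.2 to 78.9 in the controls. Of 6 fibroblast and 4 endothelial markers 0 were called, the fibroblast sum being 785 to 927 CPM in copper and 766 to 896 in lead, nearly all of it VIM and DCN, and the endothelial sum at most 10.2 CPM.

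The contrast was present at a 10 times lower dose in part of these genes. At 2.5 µM copper and lead differed in 200 genes, 87 higher in copper and 113 lower (0.823%). These libraries are not those of 25 µM. Of the 200, 104 were also called at 25 µM, all in the same direction, which is 52% of the 2.5 µM calls and 18.4% of the 25 µM calls. Of the 564 genes called at 25 µM, 489 had the same sign at 2.5 µM (86.7%), against 53.3% of all genes tested. At 0.25 µM 6 genes were called (0.0247%), ATOH8, PTGR1, AKR1C1, AKR1C2 and RTTN lower in copper and STC1 higher. At 0.025 µM 1 gene, NFKBIL1, was called lower (0.00412%). AKR1C2 was thus lower in copper at 0.25 µM (-0.68 ± 0.14) and higher at 25 µM.

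DHRS3 and STRA6 were called at 2.5 µM too, and RARRES1 was not (-1.13, edgeR adjusted p = 0.384). DHRS3 differed by -2.10 ± 0.20 at 2.5 µM (edgeR adjusted p = 1.93e-14), and its gap at 25 µM was wider (-2.08 ± 0.31 for the change, edgeR adjusted p = 6.61e-06). STRA6 differed by -2.82 ± 0.29 (edgeR adjusted p = 3.01e-12), FBXO32 by -1.85 ± 0.21 and SULT1E1 by -2.09 ± 0.32, and for these 3 the change to 25 µM was not called. THBS1 (1.35 ± 0.17), AREG (0.76 ± 0.13), DUSP6 (0.82 ± 0.14) and EGR1 (0.83 ± 0.16) were also called at 2.5 µM, as was ALAS1 (-0.57 ± 0.12).

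The sterol genes were not. Of the 28, 0 were called at 2.5 µM, with a median of 0.08, and HMGCS1 went from 0.17 ± 0.14 at 2.5 µM to -1.36 at 25 µM, a change of -1.54 ± 0.21 (edgeR adjusted p = 4.98e-07). FADS2 (-1.03 ± 0.20) and INSIG1 (-1.01 ± 0.21) changed likewise. In all, the gap changed between the doses in 38 genes (0.156%), among them ZFP36L2 (0.91 ± 0.18), ERRFI1 (0.92 ± 0.19), S100A8 (1.74 ± 0.39), TAGLN (-1.66 ± 0.39), FAM20C (-1.13 ± 0.23) and ALDOC (-1.14 ± 0.27). Without the pair term that count was 3.

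**Figure D4:**
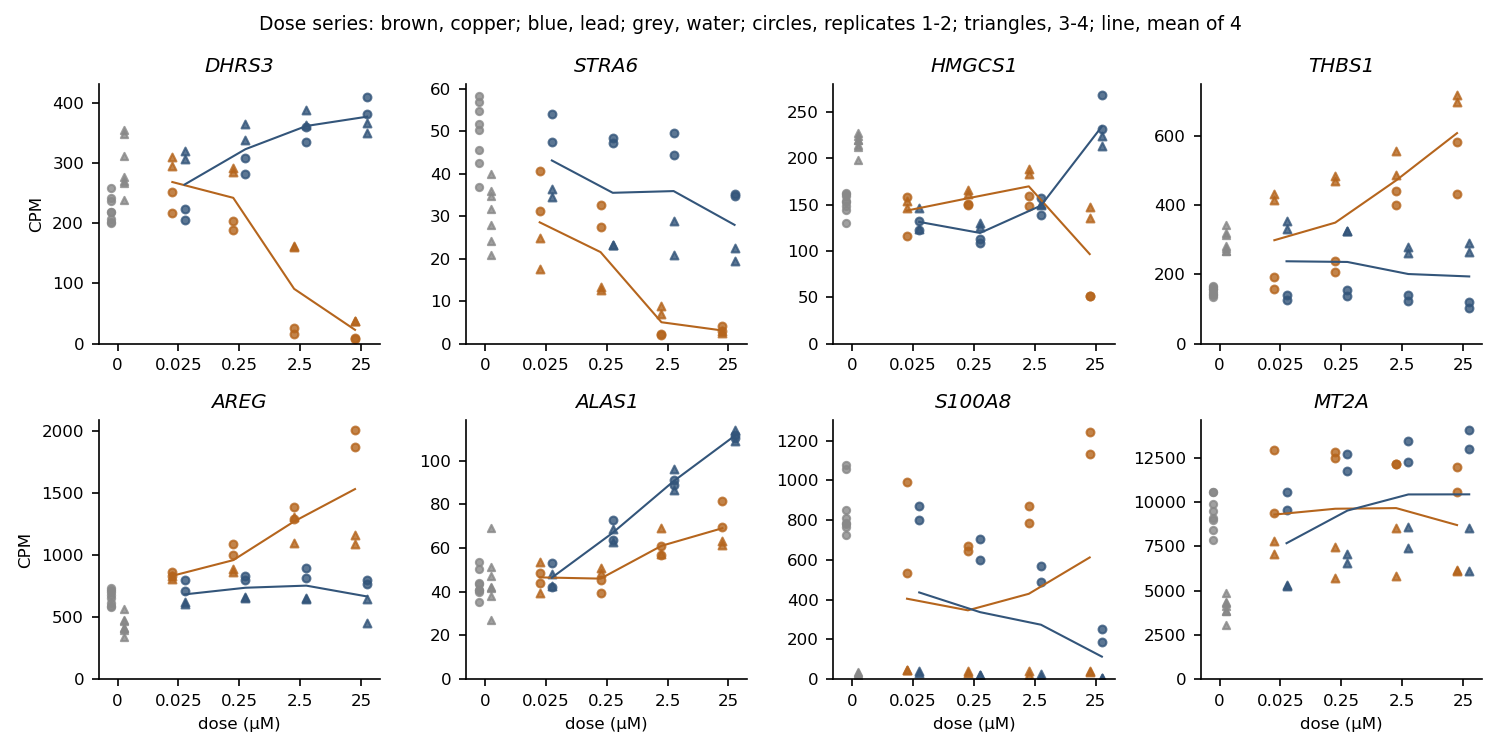
CPM of 8 genes (vertical axes from 0) at 0, 0.025, 0.25, 2.5 and 25 µM, with evenly spaced dose steps; brown is copper, blue lead, grey water, circles and triangles are the 2 pairs of replicates and lines join the means of 4 libraries. DHRS3 and STRA6 part by 2.5 µM, HMGCS1 parts at 25 µM, and the metals overlap in MT2A.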

How the data were processed

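RNA-seq counts of MCF10A cells (STAR, featureCounts and GRCh38 per the submitters' processing notes, versions, annotation and strand not given in the sources used here) were taken as the authors deposited them: whole-number read counts for 34718 gene symbols, 1 table per library, not normalized. The 93 libraries of the plate barcode were fitted together with edgeR 4.0.16 (R 4.3.3, limma 3.58.1): filterByExpr by chemical and dose (minimum count 10, total 15), TMM scaling, 1 mean per chemical and dose, a term for the pair of replicates (1 and 2 with controls 1 to 8, 3 and 4 with controls 10 to 16), and quasi-likelihood tests. Totals were 1.43 to 25.8 M counts. CPM are counts over TMM-scaled totals.

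Alternatives were RLE scaling, no filter, DESeq2 1.42.0, no pair term, a replicate block, the 8 libraries alone, each pair alone, thinning, and leaving out each library. Same-numbered copper and lead libraries deviated together (correlations of 0.23 to 0.33 over 9364 genes, 4 of 4 above 0.1). Unlike numbers of the same pair of replicates did so as well (0.23 to 0.29), and 2 copper libraries correlated best with their own number. Within a pair of replicates the same-number correlations were 0.00 to 0.03. These values thus show the split between pairs and give no sign of pairing by number. The replicate block used the labels' numbers and is given as an alternative only. No 2 libraries were duplicates. The code was tested on simulated data.

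Named genes were the 10 highest and 10 lowest called genes whose groups did not overlap, at an average log2 CPM of at least 3, the called members of each list, up to 4 by size, and 14 metal and stress genes. Members and lists were chosen with earlier results of these data known. A few genes that enter these counts are not reported here. Promoter windows came from RefSeq (GRCh38.p14). Genes shown with a sequence, and genes said to be so, were chosen after values were seen.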

Additional observations from a re-analysis of the deposited data

Results flagged for a closer look

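Single libraries stood out in 4 named genes. KRT80 in Copper 25 replicate 3 (18.7 CPM), TAGLN in Copper 25 replicate 4 (7.25 CPM), FAM20C in Copper 25 replicate 2 (26.1 CPM) and ATP7A in Copper 25 replicate 2 (8.22 CPM) each lay farther from the other 3 libraries of their group than Dixon's limit for 4 values allows. These were 4 of 126 groups checked, and chance marks about 1 group in 20. KRT80, TAGLN and FAM20C were named by a rule that required copper and lead values not to overlap. Their lack of overlap therefore says nothing further of these libraries.

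In 12 of the 63 named genes the copper-lead difference itself differed between replicates 3 and 4 and replicates 1 and 2 by edgeR's quasi-likelihood test of that change, and 11 of the 12 are given here. The change, as log2 of replicates 3 and 4 minus replicates 1 and 2, was negative in THBS1 (-0.84), INSC (-1.98), ZFP36L2 (-1.46), LAMB3 (-1.54), EGR1 (-1.19), HMOX1 (-2.21) and CDKN1A (-0.80). It was positive in DHRS3 (2.34), SULT1E1 (4.36), HMGCS1 (1.64) and INSIG1 (1.56). In the 9 of these 11 that were called over all replicates, either sign is a smaller gap in replicates 3 and 4. In HMOX1 and CDKN1A the gap changed sign (0.95 to -1.25 and 0.58 to -0.22). The labels do not name what separates the pairs, and its part in these values was not tested.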

How the results depend on the processing

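The 564 genes called at 25 µM were 574 with relative log expression scaling, 653 with no filter, 424 with DESeq2, 455 with all libraries thinned to 12237804 counts and 575 in the 8 libraries alone. Without the pair term there were 201 (107 higher, 94 lower), within replicates 1 and 2 there were 1120 (667 and 453), and within replicates 3 and 4 there were 127 (40 and 87), so that the share higher in copper went from 49.8% to 53.2%, 59.6% and 31.5%. Leaving out 1 of the 8 libraries gave 358 to 631 genes, 177 to 346 higher and 166 to 285 lower. On the pairing by replicate number, the block over the dosed libraries gave 631, and in the 8 libraries alone it gave 313 (158 higher, 155 lower), so that the genes shared with the 564 were 547 and 296. At 2.5 µM the 200 genes became 45 without the pair term and 27 within replicates 3 and 4. At 0.25 µM the 6 became 27 with no filter, 1 with DESeq2, 1 without the pair term and 2 within replicates 1 and 2. At 0.025 µM the 1 gene became 6 with no filter and 0 without the pair term, within either pair and after thinning (edgeR, with 997 genes at an unadjusted p under 0.05 in the full fit). The 38 genes that changed between 2.5 and 25 µM became 86 with no filter, 3 without the pair term, 233 within replicates 1 and 2, 5 within replicates 3 and 4 and 25 after thinning. Over 18 alternatives the 50 called named genes gave 900 comparisons, 809 with the call kept, 91 with it lost and 0 with the sign turned. The losses were uneven, with 27 of the 50 calls lost within replicates 3 and 4 and 19 without the pair term. The alternatives share libraries, so the 900 comparisons are not independent. The sign turned in genes that were not called: HMOX1 (-1.25), ATP7A (-0.15), ATF3 (-0.29) and CDKN1A (-0.22) within replicates 3 and 4, ALAD (-0.0018) within replicates 1 and 2, and ATP7A (-0.22) without Copper 25 replicate 2 (-0.22 to 0.55 over the 8 omissions). Fewer libraries enter the fits within a pair, and the cause of the other shifts was not tested. Genes at a few counts per library, such as CA9 and IL6, are limited by depth. Among the named genes given here, the replicate block changed no call other than those given with the results.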

Other observations

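Genes outside the lists and outside the naming rule, chosen after their values were seen, held some of the steadiest and some of the most pair-bound differences. IGFBP6, a binding protein for insulin-like growth factor II, measured 222, 203, 197 and 172 CPM in copper and 641, 571, 488 and 506 CPM in lead (-1.47 ± 0.11, edgeR adjusted p = 1.58e-21), with -1.51 in replicates 1 and 2 and -1.42 in replicates 3 and 4. PTGES, the inducible prostaglandin E synthase, measured 674, 567, 731 and 709 CPM in copper and 1522, 1562, 1430 and 1466 CPM in lead (-1.16 ± 0.10, edgeR adjusted p = 1.11e-17). ID1 and ID3, inhibitors of helix-loop-helix factors and targets of BMP signalling, differed by -0.99 ± 0.10 and -0.99 ± 0.14, with pair values between -0.96 and -1.02. All 4 genes lay below the controls in copper (-0.62 to -0.98) and above them in lead (0.30 to 0.49), and all 4 were called at 2.5 µM too. Their copper and lead values did not overlap.

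INHBA, the activin A subunit, was at 47.1, 53.6, 14.3 and 12.5 CPM in copper and at 5.54, 2.16, 2.34 and 2.39 CPM in lead (3.33 ± 0.29, edgeR adjusted p = 2.95e-17), and it passed in each pair alone. SLC26A2, a sulfate transporter, was at 372, 339, 301 and 297.5 CPM against 146, 156, 182 and 164 CPM (1.02 ± 0.10, edgeR adjusted p = 4.74e-13). IL24, a cytokine, SERPINB2, a protease inhibitor, and KRT16, a keratin of activated epithelium, parted in replicates 1 and 2 only among the pairs tested, with 3.99, 4.33 and 4.24 there and -0.57, 0.46 and 0.40 in replicates 3 and 4. The change between pairs passed the edgeR test in each (-4.56, -3.87 and -3.84).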
